A study of Mus musculus with 3 samples.

Results

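Glp1r, Glp2r, Gipr and Dpp4 are the receptor genes for the gut hormones GLP-1, GLP-2 and GIP and the gene of DPP4, the peptidase that inactivates GLP-1 and GIP. These 4 of the 37224 Ensembl genes counted were taken by symbol. The set was chosen by the read counts of Glp1r and Dpp4 in these same libraries, already known to differ between them, so their levels are a description and support nothing. RNA was sequenced from 3 immune cell populations of the intestinal epithelium of RAG-2 null mice, which lack a recombinase subunit and so make no rearranged antigen receptors. The iCD8a cells were sorted for CD8α and the leukocyte marker CD45. Innate lymphoid cells of group 1 (ILC1) carried NKp46 and NK1.1, and the myeloid cells (CD11b+) carried CD45 and CD11b and no CD8α. All 3 groups share the RAG-2 null genotype, and no library from mice with RAG-2 was analysed here. The labels do not give the age of the mice, any treatment, or how many mice went into each library. With 1 library from each of them, the differences below have no replicate check and were not tested.

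GLP-1 and GLP-2 are cut from proglucagon, the product of Gcg, in enteroendocrine L cells of the gut epithelium, and GIP comes from K cells. Their receptors belong to the class B1 family of peptide hormone receptors, which couple to the stimulatory G protein and raise cyclic AMP (cAMP), and GLP-1 receptor has been described on intraepithelial lymphocytes. DPP4 removes an N-terminal dipeptide that ends in proline or alanine. It is a brush border enzyme of enterocytes, and as CD26 it stands on T cells and on some dendritic cells, where it binds adenosine deaminase.

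Total gene counts in iCD8a, ILC1 and CD11b+ were 21678113, 22181660 and 30511296. Levels are given as CPM, the usual scaling of a gene's reads to library size, with TMM factors, and 1 read was worth 0.0423, 0.0454 and 0.0354 CPM in that order. Ranges in parentheses are exact 95% intervals for counting error and say nothing of the spread between animals. The gate markers Cd8a, Ncr1, Klrb1c and Itgam were each highest in the library sorted for them, though not all separated the libraries clearly. Cd8a stood at 2636, 4.41 and 28.3 CPM in iCD8a, ILC1 and CD11b+, and Ncr1 (NKp46) at 1.44, 396 and 2.23. Klrb1c (NK1.1) stood at 207, 546 and 14.7 CPM and Itgam (CD11b) at 362, 187 and 845. Klrb1c and Itgam thus had substantial levels in iCD8a as well. Mitochondrial genes took 1.60% and 2.09% of the counts in iCD8a and ILC1 and 9.53% in CD11b+. In bulk libraries of this kind, fewer cells that carry a transcript and less of it per cell cannot be told apart.

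The start regions of Glp1r and Dpp4, the 2 members with more than a few reads, are shown because they differ in base composition. The bases printed lie 250 to 101 before the RefSeq start (GRCm38.p6), 5′ to 3′ on the gene's strand, and capitals mark a GC box, which has the letters GGGCGG on either strand.
Glp1r, chr17:30901617-30901766, plus strand: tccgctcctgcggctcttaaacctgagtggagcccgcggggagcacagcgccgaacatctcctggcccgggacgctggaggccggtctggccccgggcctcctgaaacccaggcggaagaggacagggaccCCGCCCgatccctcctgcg
Dpp4, chr2:62412332-62412481, minus strand: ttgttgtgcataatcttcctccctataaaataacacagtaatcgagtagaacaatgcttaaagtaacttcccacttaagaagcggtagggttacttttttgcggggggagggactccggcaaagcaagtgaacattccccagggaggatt
The Glp1r window held 71.3% G and C and 14 CpG, more than 93.7% and 90.0% of the 27025 promoters in the RefSeq table. The Dpp4 window held 44.0% and 4 CpG, more than 26.4% and 56.3% of them. A GC box occurred once in the Glp1r window and not in the Dpp4 window, and 16.5% of all windows held one. Neither window held the cAMP response element TGACGTCA (0.381% of all windows), the CDX core TTTATG (6.98%) or the RUNX core TGTGGT (8.77%), searched on both strands. These are descriptions of letters in the window and not of binding.

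Glp1r (ENSMUSG00000024027), the GLP-1 receptor, was abundant in one library and low in the other two. It had 2231 reads in iCD8a, or 94.4 CPM (90.5 to 98.4). ILC1 held 60 reads, or 2.73 CPM (2.08 to 3.51), and CD11b+ held 143, or 5.07 CPM (4.27 to 5.97). The level in iCD8a was 34.6-fold that in ILC1 (26.8 to 45.5) and 18.6-fold that in CD11b+ (15.7 to 22.2). ILC1 and CD11b+ stood closer, with CD11b+ higher by 1.86-fold (1.37 to 2.56), an interval that leaves out equality for counting error alone. Per kilobase of exon, Glp1r in iCD8a stood above 78.0% of the 12621 protein-coding genes that reached 1 CPM somewhere, against 16.9% in ILC1 and 17.5% in CD11b+. AC174471.1 and AC165951.1, annotated on the opposite strand, overlap Glp1r and are not among the gene IDs of the files. Without a stated strand setting, any reads of theirs in shared exons cannot be told apart from those of Glp1r.

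**Figure D1:**
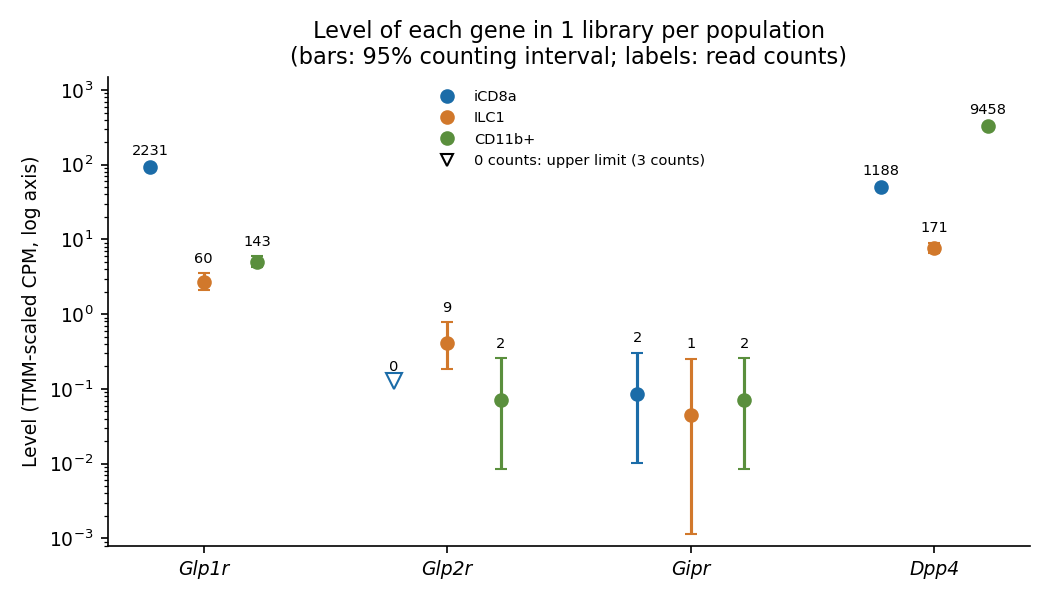
Level of the 4 genes in TMM-scaled CPM on a log axis, 1 point per library with its 95% counting interval and the read count above it; an open triangle marks the upper limit for 0 counts. Glp1r is highest in iCD8a (2231 reads), Dpp4 is highest in CD11b+ (9458 reads), and Glp2r and Gipr have at most 9 reads in any library.

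A pair of libraries was called apart for a gene on 3 conditions, a fold of 4 or more, an interval that stayed at or above 2-fold, and 5 CPM or more in the higher library. Of the genes with at least 5 CPM in a library of the pair, 3.52% were higher in iCD8a than in ILC1 by that rule and 4.89% were lower. The shares were 6.13% higher and 13.4% lower for iCD8a against CD11b+, and 6.01% higher and 13.0% lower for ILC1 against CD11b+. Of the 4 members, Glp1r and Dpp4 reached 5 CPM and the 2 other receptors did not. Glp1r and Dpp4 were both higher in iCD8a than in ILC1, Glp1r was higher and Dpp4 lower in iCD8a than in CD11b+, and Dpp4 was lower in ILC1 than in CD11b+. Since the choice of members used these contrasts, nothing is read from these counts against the shares.

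The other receptors of the group were at or near the limit of detection. Glp2r (ENSMUSG00000049928), the GLP-2 receptor, had 0 reads in iCD8a, which allows up to 0.127 CPM, 9 reads in ILC1 (0.409 CPM, 0.187 to 0.776) and 2 in CD11b+ (0.0709 CPM, 0.00859 to 0.256). The near bound for ILC1 over iCD8a was 2.12-fold, and ILC1 over CD11b+ was 5.77-fold (1.19 to 54.9). Glp2r overlaps Gas7, a gene on the opposite strand with 862, 7184 and 4224 reads in iCD8a, ILC1 and CD11b+. Without a stated strand setting, Glp2r reads from the shared stretch cannot be told apart from reads of Gas7. Gipr (ENSMUSG00000030406), the GIP receptor, had 2, 1 and 2 reads in the same order, and no fold is given. All 3 Gipr values and the Glp2r values in iCD8a and CD11b+ were under the level of 3 reads, so differences between them were not detectable at this depth.

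Dpp4 (ENSMUSG00000035000), which encodes the peptidase, followed another order. It had 9458 reads in CD11b+, or 335 CPM (329 to 342), 1188 in iCD8a, or 50.3 CPM (47.5 to 53.2), and 171 in ILC1, or 7.77 CPM (6.65 to 9.03). The 3 intervals do not overlap. CD11b+ was 6.67-fold above iCD8a (6.28 to 7.09) and 43.1-fold above ILC1 (37.1 to 50.5), and iCD8a was 6.47-fold above ILC1 (5.51 to 7.64). Per kilobase of exon, the Dpp4 level in iCD8a was 7.96 CPM against 16.2 for Glp1r, whereas in CD11b+ it was 53.1 against 0.872 and in ILC1 1.23 against 0.469. The receptor was thus the more abundant transcript of the pair in iCD8a and the peptidase in the other libraries. An antisense gene that overlaps Dpp4, Gm13561, had 10, 0 and 98 reads in iCD8a, ILC1 and CD11b+, few beside those of Dpp4.

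Because Dpp4 is also an enterocyte gene, it was set beside epithelial transcripts in each library. The 28 intestinal epithelial markers had medians of 5.12, 5.57 and 49.1 CPM in iCD8a, ILC1 and CD11b+, with summed levels of 928, 549 and 2264 CPM and 0 of 28 without reads. Dpp4 came to 5.42%, 1.42% and 14.8% of that sum. Cdh1, at 359, 289 and 208 CPM in iCD8a, ILC1 and CD11b+, was the largest part of the sum in iCD8a and ILC1. Cdh17 and Epcam were the next largest in iCD8a, so the shares in those libraries depend largely on a few genes. Beside the medians of 5.12, 5.57 and 49.1 CPM, Dpp4 stood at 50.3, 7.77 and 335 CPM. Of these markers, 24 were higher in CD11b+ than in iCD8a and 25 higher than in ILC1, with median log2 ratios of iCD8a over CD11b+ of -3.05 and of ILC1 over CD11b+ of -3.14, against 0.04 and 0.00 over all genes with at least 1 CPM. The log2 ratio of Dpp4 for ILC1 over CD11b+ was -5.43, and all 28 markers lay above it. For iCD8a over CD11b+ the ratio of Dpp4, -2.74, lay inside the list, with 6 markers above it and 22 below. For iCD8a over ILC1 the epithelial median was 0.04, and 27 of 28 markers lay below the 2.69 of Dpp4. The exception was Cdh17, an adhesion protein of enterocytes, at 193 CPM in iCD8a and 19.1 in ILC1. Epcam, an epithelial surface protein, stood at 154 and 31.3 CPM. Those 2 of the 16 epithelial markers that reached 5 CPM in either library were higher in iCD8a than in ILC1, against 3.52% of all genes.

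Other brush border genes followed the epithelial list for the most part. The glycosidases Sis, Mgam, Lct and Treh, which digest sugars, were all higher in CD11b+ than in both other libraries, by 8.69 to 10.4-fold over iCD8a and 6.52 to 10.1-fold over ILC1. Of 11 measured brush border peptidases, 7 reached 5 CPM in each pair with CD11b+, and all 7 were higher in CD11b+. Over all genes the shares were 13.4% against iCD8a and 13.0% against ILC1. Anpep, aminopeptidase N, which myeloid cells also carry, was at 15.4, 14.7 and 516 CPM in iCD8a, ILC1 and CD11b+. Ace, the angiotensin-converting enzyme, was at 3.55, 3.86 and 284 CPM. Their 35.2-fold and 73.4-fold levels in CD11b+ over ILC1 were, like the 43.1-fold of Dpp4, above those of every glycosidase. Unlike Dpp4, neither was apart between iCD8a and ILC1, with Ace under 5 CPM in both. The median log2 ratio of the peptidases for iCD8a over ILC1 was -0.12, with a range of -0.51 to 0.94. Mme, neprilysin, which also cuts GLP-1, had only 10, 8 and 52 reads. How much of the Dpp4 reads came with epithelial RNA was not tested.

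**Figure D2:**
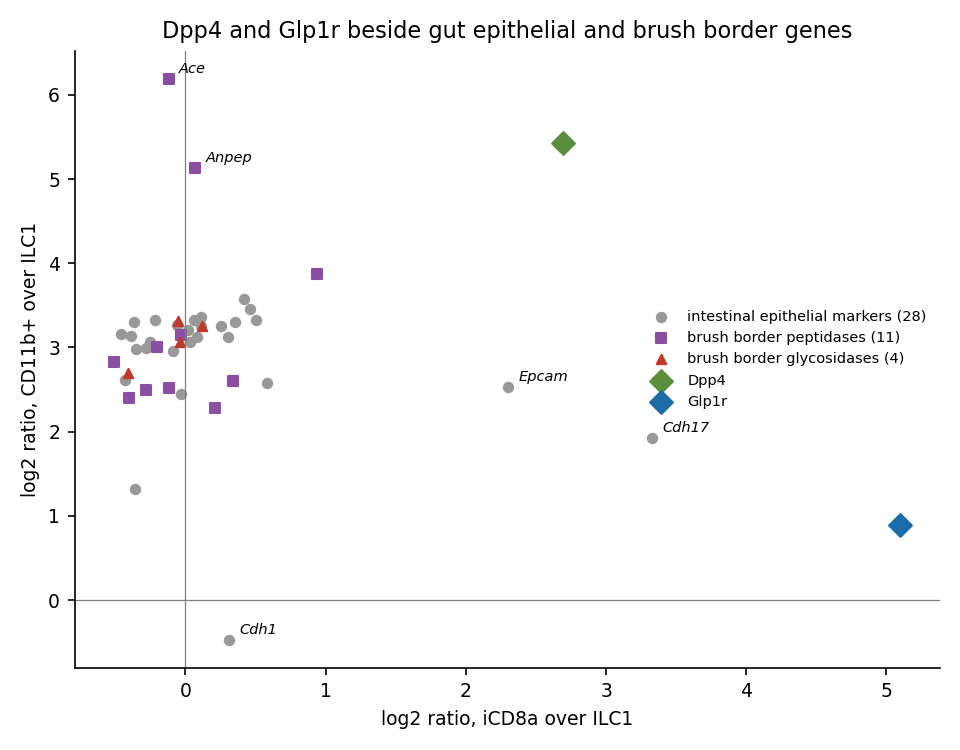
Each point is a gene, placed by its log2 ratio of iCD8a over ILC1 (horizontal) and of CD11b+ over ILC1 (vertical), for 28 epithelial markers, 11 brush border peptidases, 4 glycosidases, Dpp4 and Glp1r. Most epithelial and brush border genes gather near 0 on the horizontal axis and near 3 on the vertical one. On these axes Dpp4 stands apart at 2.69 and 5.43. For iCD8a over CD11b+, which is not an axis here, Dpp4 at -2.74 lies inside the range of the epithelial markers.

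Dendritic cells are another known source of DPP4. Of 8 markers of type 1 conventional dendritic cells, 7 reached 5 CPM in iCD8a or CD11b+. Of those, 5 were higher in CD11b+ and 1 in iCD8a, against 13.4% and 6.13% of all genes. In the pair of ILC1 and CD11b+, 5 of 6 were higher in CD11b+, against 13.0% of all genes. In the pair of iCD8a and ILC1, 3 of 4 were higher in iCD8a, against 3.52% of all genes. Their summed levels were 3071, 333 and 2501 CPM in iCD8a, ILC1 and CD11b+, and in iCD8a nearly all of it was Itgae, the integrin chain CD103 that intraepithelial lymphocytes also carry. Wdfy4, which serves cross-presentation, stood at 26.7, 2.59 and 1249.8 CPM in iCD8a, ILC1 and CD11b+, the same order as Dpp4. The defining markers Xcr1 and Clec9a went otherwise. The chemokine receptor Xcr1 was at 2.33, 4.27 and 3.47 CPM, and Clec9a, a receptor for dead cells, at 21.9, 0.182 and 3.97. Of 12 macrophage and monocyte markers, 11 were higher in CD11b+ than in iCD8a and 11 than in ILC1, against 13.4% and 13.0% of all genes. Of the 10 that reached 5 CPM in iCD8a or ILC1, 8 were higher in ILC1, against 4.89% of all genes. Dpp4 was the other way round there. The summed level of the 12 markers was 403, 919 and 8803 CPM. The part of dendritic cells or macrophages in the Dpp4 level was not tested.

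Of 10 genes of the DPP4 family and related proline-directed peptidases, 7 reached 5 CPM in either iCD8a or ILC1. Of those, Dpp4 alone was apart, higher in iCD8a, against 3.52% of all genes. Dpp4 had been chosen with this contrast known. Against CD11b+, where 7 also reached 5 CPM, Dpp4 and Prcp, a lysosomal carboxypeptidase, were lower in iCD8a and in ILC1. Of all genes, 13.4% and 13.0% were lower in those pairs. Prcp stood at 34.4 and 28.1 CPM against 206. Dpp8 and Dpp9, the cytosolic members, were found in all libraries, at 117, 110.0 and 107 CPM and at 104, 73.1 and 76.7 CPM. Fap, the closest relative of Dpp4 in sequence, had 9, 13 and 48 reads. Ada, adenosine deaminase, the partner that CD26 binds at the cell surface, was at 6.64, 14.5 and 18.4 CPM. Of the 6 genes for binding partners, Igf2r, the mannose-6-phosphate receptor, was lower in CD11b+ than in both others, at 335, 373 and 34.7 CPM in iCD8a, ILC1 and CD11b+. Fn1, fibronectin, was lower in iCD8a than in both others, with 33, 5954 and 25265 reads.

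Transcripts of the ligands were present at low levels in every library. Gcg, the proglucagon gene and the next protein-coding neighbour of Dpp4 on chromosome 2, had 63, 53 and 179 reads in iCD8a, ILC1 and CD11b+ (2.67, 2.41 and 6.34 CPM). Gip had 34, 14 and 67 reads, and Pcsk1, the convertase that releases GLP-1 in L cells, 23, 11 and 85. Of the 6 ligand and processing genes, 5 stayed under 5 CPM in every library and so could not be called apart, and Gcg, which passed 5 CPM in CD11b+, was not apart. Among the uncalled genes, Pcsk1 was 6.03-fold higher in CD11b+ than in ILC1 (3.20 to 12.5), and Pcsk1n, an inhibitor of that convertase, was 4.66-fold higher in iCD8a than in ILC1 (2.04 to 12.4). Enteroendocrine markers, 18 genes, summed to 66.3, 56.1 and 198 CPM. In each pair with CD11b+, 6 of them reached 5 CPM and 3 were higher in CD11b+. Over all genes the shares were 13.4% against iCD8a and 13.0% against ILC1. The source of these hormone transcripts was not tested.

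Within the class B1 family, Glp1r was one of 4 receptors of 15 that reached 1 CPM in any library. Vipr2, a receptor for vasoactive intestinal peptide, had 954, 527 and 53 reads, or 40.4, 23.9 and 1.88 CPM in iCD8a, ILC1 and CD11b+. It was higher in iCD8a and in ILC1 than in CD11b+, by 21.5-fold (16.3 to 28.9) and 12.7-fold (9.60 to 17.2). Vipr1, which binds the same peptide, ran the other way, at 0.762, 1.86 and 10.4 CPM. Calcrl, which pairs with RAMP proteins to form receptors for CGRP and adrenomedullin, was at 9.61, 20.9 and 5.64 CPM and was apart in no pair. Of the 3 receptors that reached 5 CPM in iCD8a or ILC1, Glp1r was the one apart between them. Per kilobase of exon, iCD8a held 16.2 CPM of Glp1r, 9.05 of Vipr2 and 1.97 of Calcrl. Gcgr, the glucagon receptor, had 1, 0 and 5 reads, and Ghrhr, Pth2r and Crhr1 had 0 in each library.

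**Figure D3:**
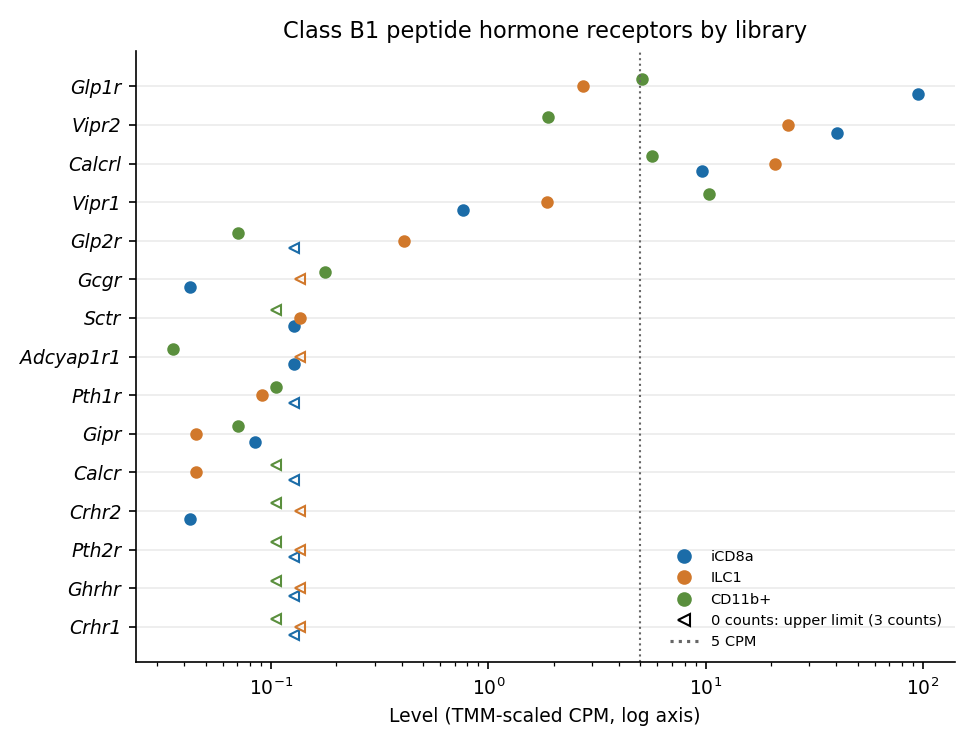
Level of the 15 class B1 receptors in TMM-scaled CPM on a log axis, 1 point per library, with open triangles at the upper limit for 0 counts and a dotted line at 5 CPM. Glp1r, Vipr2, Calcrl and Vipr1 are the receptors that pass the line in any library, and Glp1r in iCD8a, at 94.4 CPM, is the highest point.

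Ligands and partner proteins of the other class B1 receptors showed a few differences. Calca, which encodes CGRP and calcitonin, was at 5.25, 28.5 and 0.957 CPM in iCD8a, ILC1 and CD11b+, apart in all 3 pairs. Sct, secretin, was higher in CD11b+ than in both others, by 5.46-fold over iCD8a (4.29 to 7.04). Vip itself and Adcyap1, the related peptide PACAP, had 0 reads in all libraries. Ramp3 was lower in iCD8a than in ILC1 by 4.14-fold (3.52 to 4.89) and than in CD11b+ by 12.8-fold (11 to 14.9).

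Among 22 other receptors that couple to the stimulatory G protein, Adrb1, the beta-1 adrenergic receptor, had the highest ratios of iCD8a over both other libraries among the 10 that reached 1 CPM, with 3046, 221 and 368 reads. It was 12.8-fold higher in iCD8a than in ILC1 (11.2 to 14.8) and 9.88-fold higher than in CD11b+ (8.87 to 11), both under the folds of Glp1r. Ptger4, a prostaglandin E2 receptor, and Adora2a, an adenosine receptor, were abundant in iCD8a at 59.8 and 32.9 CPM per kilobase, above the 16.2 of Glp1r, as were Adrb1 at 38.1 and the proton sensor Gpr65 at 34.7. Of 10 that reached 5 CPM in iCD8a or CD11b+, 1 was higher in iCD8a and 4 in CD11b+, against 6.13% and 13.4% of all genes. Among the 4 were Htr7 and Ptgir, receptors for serotonin and prostacyclin, with 7 against 1635 and 0 against 228 reads in iCD8a and CD11b+. Adora2b, another adenosine receptor, was also among them, with 70 against 1385 reads. Receptors for further gut hormones were scarce. Of 17 measured, Insr, the insulin receptor, was the one that reached 5 CPM, and it was apart in no pair.

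Genes of the machinery below the receptor were read in iCD8a. Gnas, the stimulatory G protein alpha subunit, was at 279, 269 and 146 CPM in iCD8a, ILC1 and CD11b+, and Adcy7, the most abundant adenylyl cyclase, at 388, 491 and 446. Of 14 G protein and cyclase genes, 16 cAMP effectors and 15 measured phosphodiesterases, 7, 13 and 9 reached 5 CPM in iCD8a or ILC1. Of these, 0 were apart between the pair, where 3.52% of all genes were higher in iCD8a and 4.89% lower. The median log2 ratios were -0.34, 0.15 and 0.01, against 0.04 over all genes. Single genes lay on both sides, with Pde1c at 35.5 CPM in iCD8a and 9.77 in ILC1 and Pde4d at 21.9 and 79.8. Below the minimum, the cyclase Adcy5 had 54 and 5 reads and Pde11a had 0 and 39. Against CD11b+, the catalytic protein kinase A subunit Prkacb (872 against 160.4 CPM), the cyclase Adcy3 and the phosphodiesterases Pde1c, Pde4a and Pde7a were higher in iCD8a. Adcy6 and Pde1b were lower in iCD8a than in CD11b+. Rapgef3 and Rapgef4, which encode the cAMP sensors EPAC1 and EPAC2, had at most 40 reads in a library.

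Receptor kinases and arrestins shut off activated receptors. Of 7 such genes, 1 was higher in iCD8a than in ILC1 and 1 lower, against 3.52% and 4.89% of all genes. Grk3 had 1912, 122 and 6601 reads in iCD8a, ILC1 and CD11b+, and was 14.6-fold higher in iCD8a than in ILC1 (12.1 to 17.7). Grk5 had 49, 609 and 1069 reads and was 13.3-fold lower in iCD8a than in ILC1 (9.97 to 18.2). The kinases Grk2, Grk4 and Grk6 and the arrestins Arrb1 and Arrb2 were apart in no pair. Grk6, the most abundant of the list in iCD8a, was at 882, 549.6 and 264 CPM. Of 12 cAMP response genes, 11 reached 5 CPM in each pair with iCD8a, and 0 were higher in iCD8a. Nr4a1 and Nr4a3, nuclear receptors that also respond to cell handling, were the 2 lower in iCD8a than in ILC1 and CD11b+. Of all genes, 4.89% were lower in iCD8a than in ILC1 and 13.4% lower than in CD11b+. The list of cAMP response genes had a median log2 ratio of -1.35 for iCD8a over ILC1 and of -0.46 for iCD8a over CD11b+. Over all genes the median was 0.04 in both pairs.

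**Figure D4:**
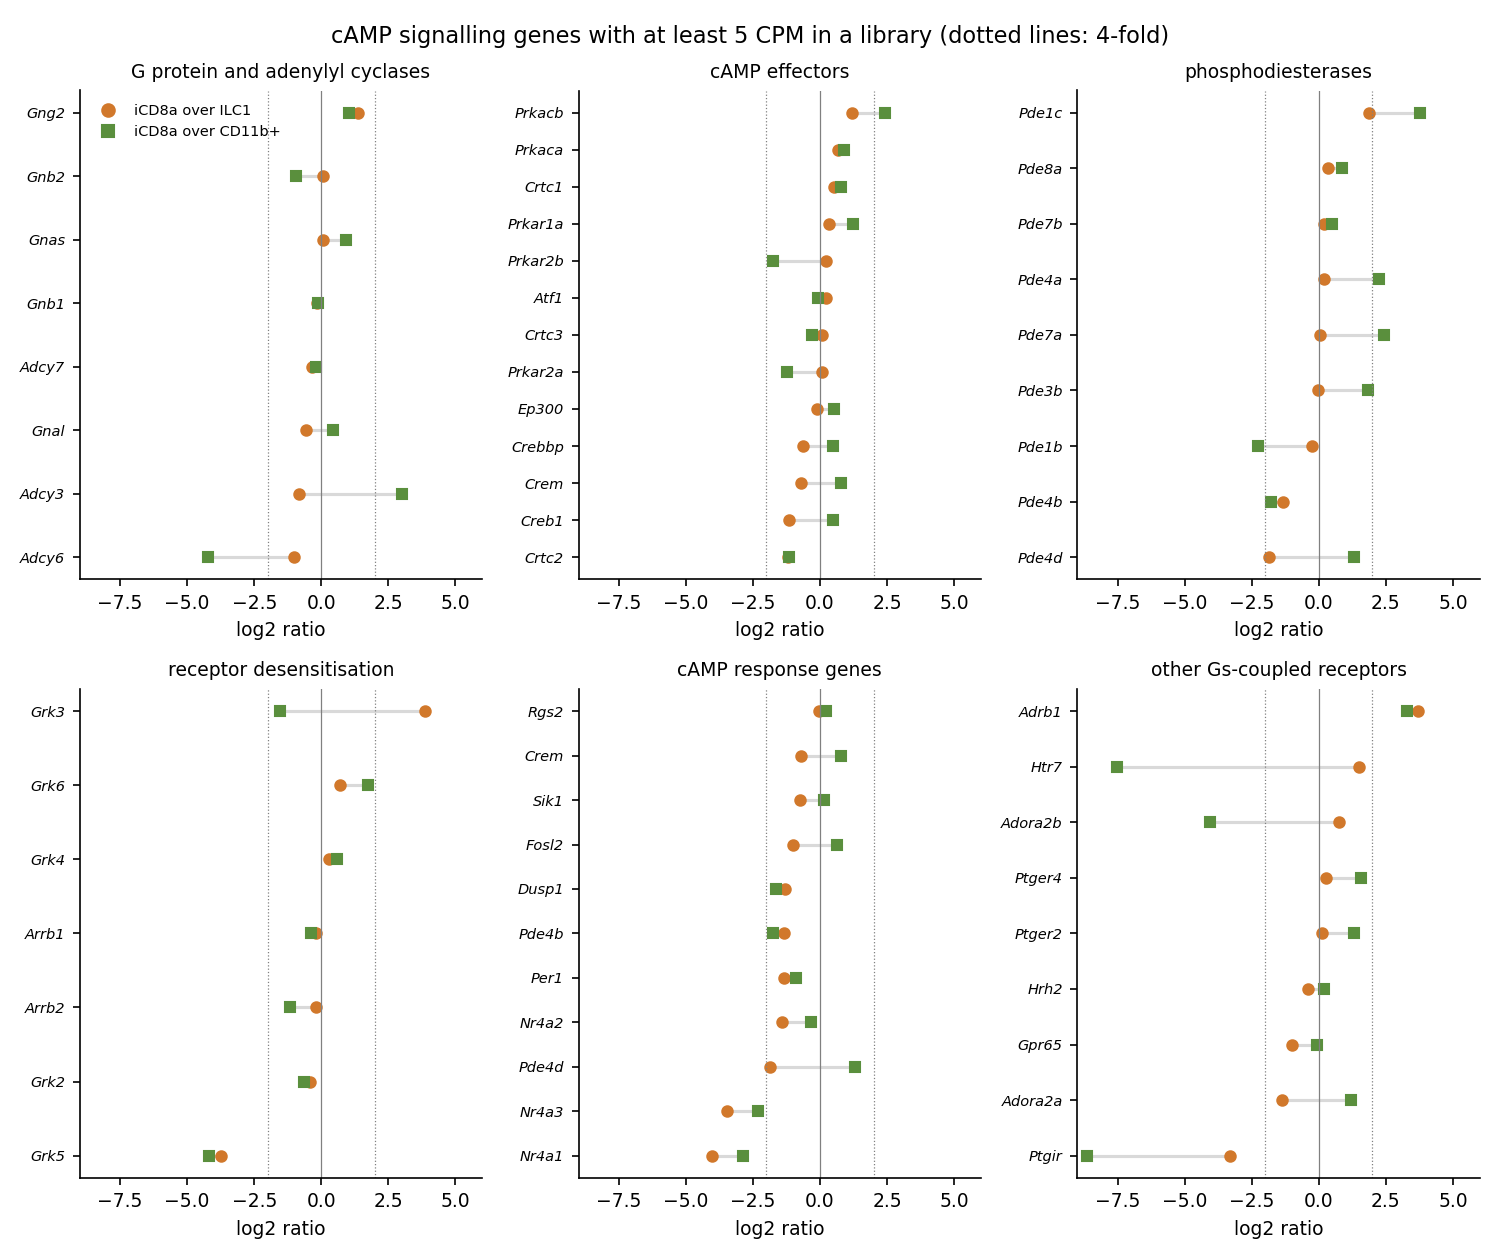
Log2 ratios of iCD8a over ILC1 (circles) and over CD11b+ (squares) for genes of 6 cAMP signalling lists, all those drawn with at least 5 CPM in a library. Dotted lines mark 4-fold, and both points of Ptgir, at 0 reads in iCD8a, depend on the prior count. Effectors lie mostly inside the lines, while Grk3, Grk5, Adrb1, Nr4a1 and Nr4a3 lie outside for ILC1. The circle of Ptgir, with 4 reads in ILC1, also lies outside.

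Genes with ratios most like those of Glp1r were sought by the distance between the log2 ratios of iCD8a over ILC1 and over CD11b+, which are 2 numbers per gene from 3 libraries. Of 7894 other protein-coding genes with at least 20 CPM in a library, 12 lay within 1 log2 unit. Among the closest were Cela1, an elastase-like protease (distance 0.48, levels of 95.8, 3.41 and 6.66 CPM), Cdh23, a cadherin (0.65), Rasgrf1, an exchange factor for Ras (0.68), and Arfgef3 (0.70). Around Dpp4 lay 30 genes within that distance. The nearest were Cds1, an enzyme of phospholipid synthesis (0.10), Gsn, the actin-severing protein gelsolin (0.29), Cybb, the oxidase subunit of phagocytes (0.34), the calcium channel Ryr1 (0.34) and Ldlrad3 (0.40). Cybb stood at 129, 24.1 and 988 CPM.

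**Figure D5:**
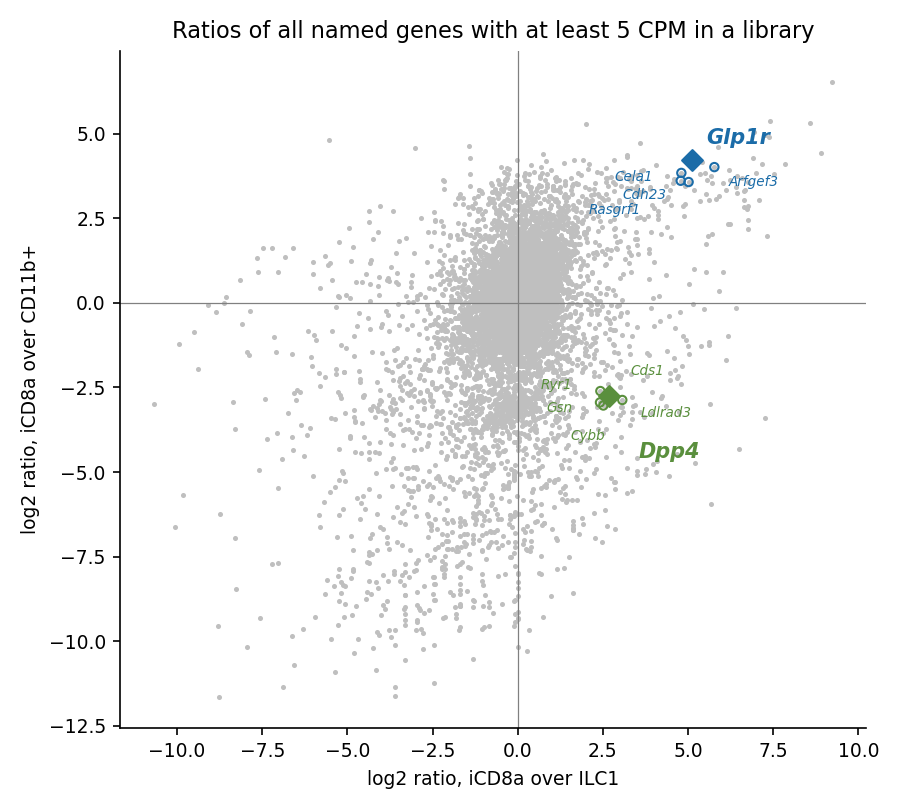
Each grey point is a gene with at least 5 CPM in a library, placed by its log2 ratio of iCD8a over ILC1 (horizontal) and over CD11b+ (vertical). Filled diamonds are Glp1r and Dpp4 and open circles are genes near to each; Glp1r lies at 5.10 and 4.21, Dpp4 at 2.69 and -2.74.

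Some markers of other cell types were also highest in iCD8a. Plasmacytoid dendritic cell markers were higher in iCD8a than in ILC1 for 5 of 10 genes and than in CD11b+ for 7 of 10. The shares of all genes higher in iCD8a were 3.52% and 6.13% in these pairs. Siglech, their surface lectin, stood at 224, 0.954 and 12.9 CPM, and the transcription factor gene Spib at 94.7, 0.682 and 11.4. The summed level of that list was 1389 CPM in iCD8a, 1366 in ILC1, where Irf8 made up most of it, and 427 in CD11b+. Stromal and vascular markers, 13 genes, summed to 595, 333 and 206 CPM, nearly all of it Pecam1, which leukocytes also carry. Cdh5, an endothelial cadherin, was at 11.2, 0.0909 and 1.56 CPM, and Col1a2, a collagen gene of fibroblasts, at 8.42, 0.727 and 0.744. Both stood higher in iCD8a than in the other libraries. They were 2 of the 3 markers of that list that reached 5 CPM in each pair with iCD8a, against 3.52% and 6.13% of all genes. Kdr, an endothelial receptor, had 80, 2 and 9 reads and stayed under 5 CPM. Most fibroblast and muscle genes of the list did not share that order. Col1a1 had 9, 11 and 10 reads, Col3a1 had 1, 5 and 44, Acta2 had 1, 1 and 44, Dcn had 0, 3 and 11, Pdgfrb had 3, 9 and 23, and Pdgfra had 1, 0 and 0. Of 6 B cell markers, Ms4a1 and Pax5 had 0 reads in iCD8a. Cd79b was higher there than in both other libraries, with 582, 62 and 158 reads. It was 1 of 2 markers of that list that reached 5 CPM in each of these pairs, against the same shares of all genes. Ighm, with 11086, 6272 and 4284 reads, made up most of the summed level of that list and was apart in no pair. Cd79a had 17, 5 and 13 reads. Enteric neuron and glia markers summed to 6.35, 5.32 and 5.67 CPM, and 5, 3 and 2 of the 11 had 0 reads. Whether any of these cells carried the Glp1r reads was not tested. In CD11b+, the Glp1r level was 5.37% of that in iCD8a (4.50 to 6.36), and in ILC1 it was 2.89% (2.20 to 3.73). The same shares were 1.07% and 0.167% for Cd8a, the gene of the gate, and 7.47% and 1.97% for Cd3g, a CD3 chain.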

How the data were processed

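RNA-seq was made from 3 sorted populations, iCD8a, ILC1 and CD11b+, with 1 library each. The values are raw counts per Ensembl gene as deposited by the authors, who mapped reads with TopHat and counted them with HTSeq per the labels and the series' design text. CASAVA 1.9 and TopHat2 are named in the submitters' processing notes. No source used here names the genome build, annotation, strand setting or counter version, and reads of overlapping genes on opposite strands cannot be told apart.

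The 5 rows that name no gene held 37.3%, 46.4% and 40.0% of all counts in iCD8a, ILC1 and CD11b+ and were left out. Symbols and exon lengths came from GENCODE (GRCm38) for 35449 of 37224 IDs. CPM were scaled with TMM factors of 1.09, 0.992 and 0.925 (edgeR 4.0.16, R 4.3.3). With 1 library a population no test was possible, and folds carry 95% exact conditional binomial (Clopper-Pearson) intervals (scipy 1.17.1). These intervals and the limit for 0 reads (3 counts) cover counting error only, since reads are not independent molecules. The log2 ratios used a prior count of 0.5, and list medians took genes with at least 1 CPM in a library. The script was tested on simulated data.

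The 4 members, the 25 gene lists and the rules were chosen with earlier results of these data known. The genes named were the members, Gcg and Gip, and genes drawn from the class B1 receptors and from those next to or overlapping a member. Further ones were drawn from the most abundant genes of each list, up to 4, and from list genes that were apart. Some were among the 5 nearest to Glp1r and to Dpp4 of those with at least 20 CPM. Not every gene of these groups is named. Other named genes, such as Mme, Ada, Fap, Pcsk1, Vip, Pdgfra, Xcr1, Rapgef3 and Rapgef4, were chosen for their roles after their values were seen. Of 288 list symbols, 3 were not matched and are not analysed here. Results for a few genes are not reported here. The alternatives were other scalings (DESeq2 1.42.0 size factors, total count), other level minimums, folds and prior counts.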

Additional observations from a re-analysis of the deposited data

How the results depend on the processing

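Of 48 alternatives for the 8 member folds, 48 kept their side of the rule and 47 stayed inside the counting interval. The exception was Dpp4 in CD11b+ over iCD8a, at 5.66-fold with CPM by total count. That scaling moved the median log2 ratio of all genes from 0.04 to 0.18 for iCD8a over ILC1, from 0.04 to 0.29 for iCD8a over CD11b+ and from 0.00 to 0.11 for ILC1 over CD11b+. The genes apart between iCD8a and ILC1 numbered 850, and 1326 with a minimum of 1 CPM, 1510 with no minimum and 507 at a fold of 8. Between iCD8a and CD11b+ they numbered 2110, and 3136, 3490 and 1301 in that order. Between ILC1 and CD11b+ they numbered 2036, and 3262 with no minimum and 1240 at a fold of 8. Of 273 alternatives for list medians, 13 changed sign. The farthest from 0 of these was the class B1 receptors for ILC1 over CD11b+, at 0.50 and at -0.09 with no list minimum. No paired analysis was possible because each population has 1 library, and for the same reason no replicate could be left out. Depth limits Glp2r and Gipr, which had at most 9 reads in a library. Glp2r, at 0.409 CPM in ILC1 and less elsewhere, could not change its side of the rule under these scalings. With 0 reads in iCD8a, its ratio of iCD8a over ILC1 also could not leave its counting interval in any of the 6 settings. These Glp2r alternatives are counted above but were no check. With libraries thinned to the smallest, the Glp2r fold for ILC1 over CD11b+ was 4.25 with a near bound of 0.880.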
